A study of Tupaia belangeri with 2 samples.

Results

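The cells described here are 137 barcodes from the whole brains of 2 tree shrew (Tupaia belangeri) embryos, selected by the measured expression of genes of microglia and other macrophages. A barcode was selected when it held at least 200 genes and at least 3 UMIs in total from at least 2 of CSF1R, C1QA, C1QB, C1QC, CX3CR1, P2RY12, AIF1, TYROBP, CTSS, C3 and PTPRC. The deposited annotation names 7 of these 11 genes, and C1QA, C1QC, P2RY12 and PTPRC were not among the names, so the 7 others made the selection. Of 8401 barcodes with the gene minimum in embryo 1, 78 were selected (0.928%, exact 95% interval 0.735% to 1.16%), and of 9326 in embryo 2, 59 were (0.633%, 0.482% to 0.815%), so that 137 of 17727 barcodes were taken, at a mean share of 0.781% ± 0.209 (SD, n = 2 embryos). The 2 intervals overlapped.

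Each embryo, at 4 to 5 weeks after conception, gave 1 droplet-based 3′ library of its dissociated brain, from which the dura and the vessels had been taken off. The labels name no genotype, treatment or sex, and both embryos form a single group. The libraries held 41868023 and 38077767 UMIs over 9241 and 9685 barcodes. The selected cells held 242534 UMIs in embryo 1 and 349080 in embryo 2, with medians of 1616.5 and 3796 UMIs and 591.5 and 1191 genes per cell. The libraries shared 18 barcode sequences, none of which belonged to a selected cell.

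Microglia are the resident macrophages of the brain. They arise from yolk sac progenitors, enter the brain rudiment early in development, depend on the growth factor receptor CSF1R, and take up dying cells, prune synapses and sense damage through receptors such as CX3CR1 and P2RY12. Other macrophages sit at the borders of the brain, in the meninges and along vessels, and are known for the scavenger and mannose receptors MRC1, LYVE1 and STAB1.

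The label of microglia was met in part. AIF1, C1QB and TYROBP, of which the selection could use any, were found in most selected cells and CSF1R in 13 of 78 and 15 of 59. APOE, a further marker that took no part in the selection, was found in 55 of 78 and 48 of 59 selected cells. CX3CR1, the fractalkine receptor of microglia, was found in only 6 and 3 selected cells. TMEM119, a surface protein of mature microglia, had 0 UMIs in both embryos, which allows up to 12.4 CPM (UMIs per 1000000 UMIs of a class) in embryo 1 and 8.59 CPM in embryo 2 at 3 counts of the total. SALL1, a transcription factor that marks microglia among macrophages, was at 24.7 and 11.5 CPM, beside 25.4 and 21.9 CPM in neural progenitors. MRC1, LYVE1 and F13A1, genes of border macrophages and of macrophages of yolk sac origin, were each found in both embryos in 15 or more cells. The cells are therefore called by their rule, the selected cells, and not microglia.

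The number of UMIs from the 7 selecting genes decided the selection and is given as a description. The median was 11 UMIs in embryo 1 (3 to 142) and 15 in embryo 2 (3 to 170). Just inside the threshold, 4 and 3 cells held 3 UMIs. Just outside it, 8 and 6 barcodes held 2 UMIs from 2 genes, 16 and 4 held 3 or more UMIs from a single gene (AIF1 in 14 and 4 of them), 85 and 89 held 1 UMI, and 8205 and 9161 held 0. As the plot of barcodes by selecting UMIs shows, few barcodes lay near the threshold compared with those at 0, but no gap lay at it. From any number of the 7 genes, 17 and 13 barcodes held 2 UMIs and 9 and 4 held 3. APOE was found in 10 of the 16 single-gene barcodes of embryo 1 (62.5%) and 1 of the 4 of embryo 2 (25%). It was found in 70.5% and 81.4% of the selected cells.

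**Figure D1:**
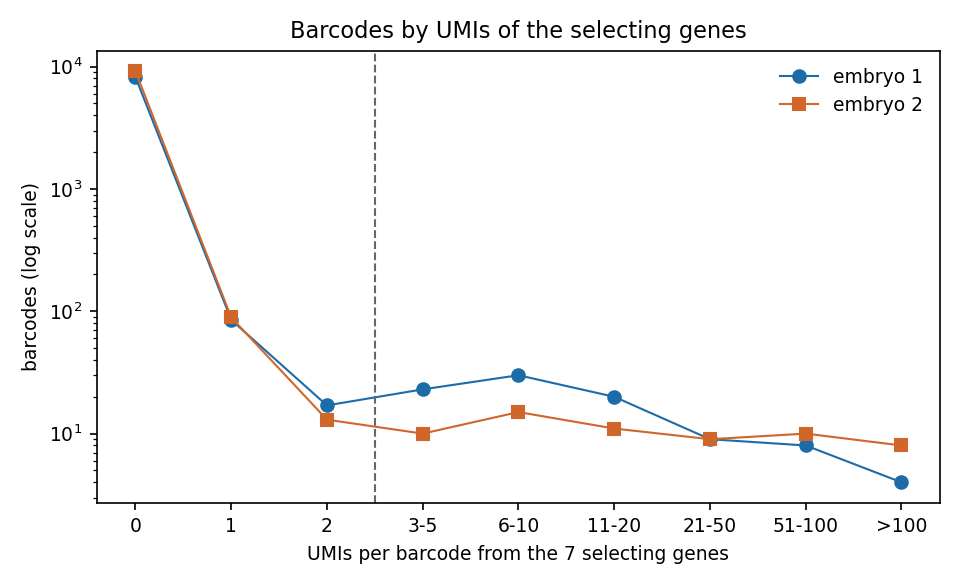
Number of barcodes (y axis, log scale) by the UMIs they hold from the 7 selecting genes (x axis, in ranges), for embryo 1 (circles) and embryo 2 (squares). The dashed line marks the minimum of 3 UMIs; most barcodes lie at 0 (8205 and 9161), and the barcodes to the right of the line include the 16 and 4 that were not selected because a single gene gave all their UMIs.

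A list of genes of microglia and macrophages outside the selecting genes was counted in the same cells. At least 2 UMIs from this list were held by 75.6% and 81.4% of the selected cells, against 14.8% and 13.9% of neuron-gated, 45.2% and 43.5% of progenitor-gated, 57.1% and 53.4% of meningeal-gated, 30.0% and 33.3% of endothelial-gated and 3.06% and 3.88% of erythroid barcodes. Some of its genes, such as CORO1A and DOCK2, are also expressed in neural cells. The median depths differed, at 1616.5 and 3796 UMIs in the selected cells, 3312 and 3086 in neuron-gated, 5272 and 5130 in progenitor-gated and 5640 and 4572 in meningeal-gated barcodes. Of the selected cells, 5 in embryo 1 and 12 in embryo 2 also reached the threshold of another class. These were the neuron threshold in 2 and 9 cells, the progenitor threshold in 1 and 2, and the haemoglobin threshold of erythroid cells in 2 and 1. None reached the endothelial or meningeal threshold. No doublet caller was run.

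The selecting genes themselves were present in the following amounts, as a description with no test. AIF1, a calcium-binding protein of macrophages, was at 2845 and 2017 CPM in embryos 1 and 2 and was found in 71 and 55 selected cells. C1QB, a chain of the complement starter C1q, was at 2189 and 2283 CPM in 66 and 52 cells. TYROBP, the adaptor through which several myeloid receptors signal, was at 1579 and 1653 CPM in 61 and 52 cells. These 3 genes gave most of the selecting UMIs in both embryos. The protease CTSS was at 507 and 539 CPM, and the complement component C3 at 284 and 186 CPM in 16 and 12 cells. CSF1R was at 82.5 and 60.2 CPM in 13 and 15 cells, and CX3CR1 at 28.9 and 11.5 CPM. Summed over the 7 genes, the level was 7516 and 6749 CPM in the selected cells and 4.24 and 3.83 CPM in neuron-gated barcodes. When every barcode was thinned to 1000 UMIs, C1QB was found in 65.5% and 71.7% of selected cells and in 0.118% and 0.0276% of neuron-gated barcodes, a share that the selection itself lowered, since neuron-like barcodes with 3 selecting UMIs from 2 genes had been taken first.

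**Figure D2:**
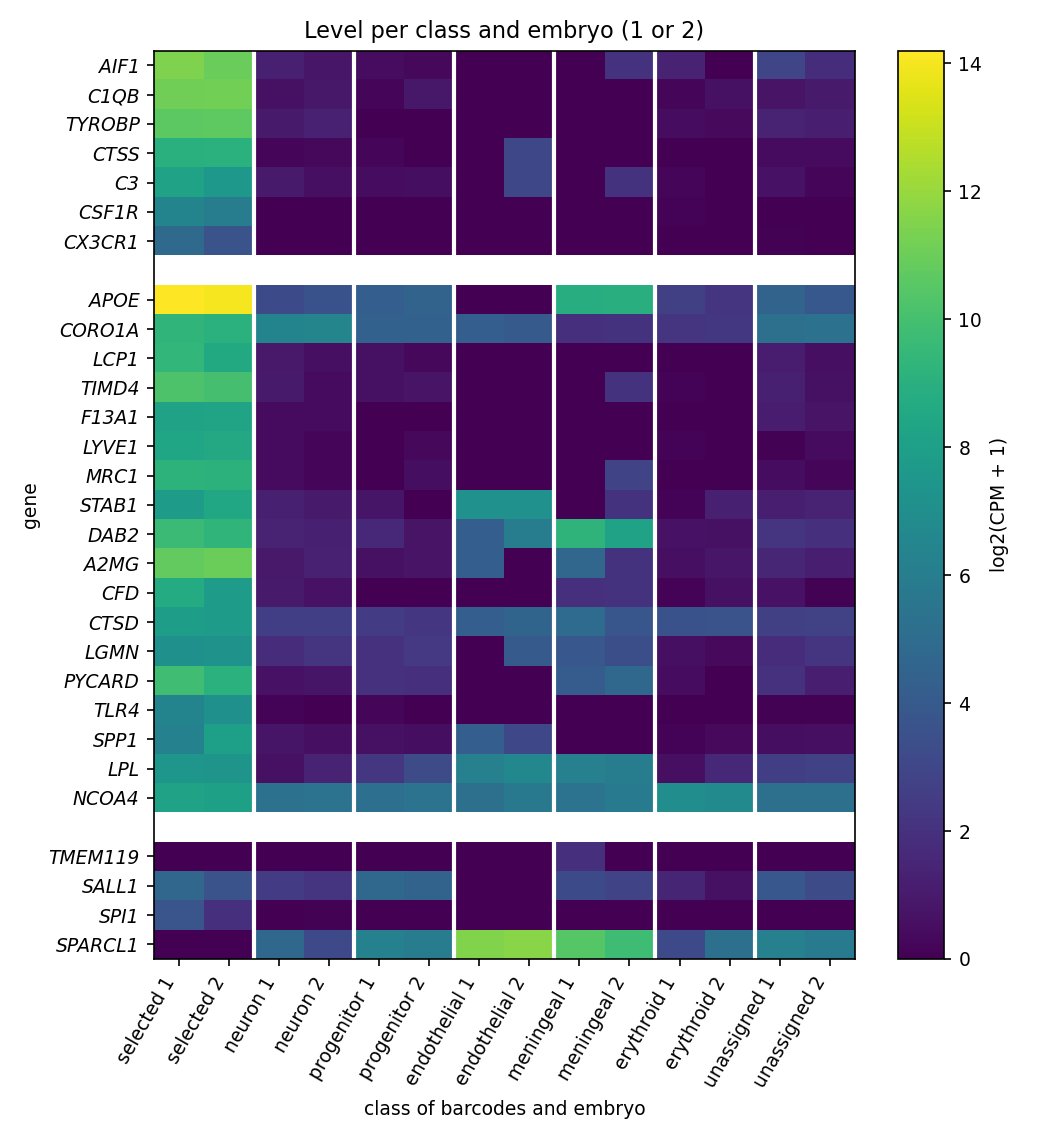
Level of each gene (rows) as log2(CPM + 1), from the UMIs summed over each class of barcodes and embryo (columns, embryo 1 or 2). The upper block holds the 7 selecting genes, the middle block genes outside the selection and the lowest block microglial genes at or near 0 in the selected cells together with SPARCL1, which had 0 UMIs there and 2953 and 3272 CPM in endothelial-gated barcodes.

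To compare the selected cells with other classes, UMIs were summed per embryo and class and the selected cells were compared with neural cells (the mean of 6306 neuron-gated and 1296 progenitor-gated barcodes), with 31 endothelial-gated and with 121 meningeal-gated barcodes, in a single edgeR quasi-likelihood fit of 4826 genes with embryo as a block. Against neural cells, 952 genes (19.7% of those tested) were higher in the selected cells and 899 (18.6%) lower at an adjusted p under 0.05. The numbers were 422 (8.74%) and 391 (8.1%) against endothelial-gated and 563 (11.7%) and 672 (13.9%) against meningeal-gated barcodes. In all 3 comparisons alike, 226 genes (4.68%) were higher and 45 (0.932%) lower. These counts hold 29 genes that the selection or the gates had used, whose differences those rules set at least in part, AIF1, C1QB, C3, CSF1R, CTSS and TYROBP among the genes higher in all 3. Outside the 29, the numbers higher and lower were 941 and 897 against neural cells, 411 and 385 against endothelial-gated and 551 and 663 against meningeal-gated barcodes, and 216 and 44 in all 3. A gene could pass the filter on low counts through the selected cells alone, and its call was then set in part by the filter. NCKAP1L, CD86, CD74, LYVE1 and F13A1 of the lists below are such genes. The counts of calls, also those of each list, therefore describe the genes that passed and not the lists as wholes. Only 10 and 21 barcodes were endothelial-gated, with 55194 and 132647 UMIs. The p-values rest on the spread left between 2 embryos per class after the embryo block. That spread was estimated over all classes together and moderated across genes. It does not reflect how many cells carry a gene.

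Among the genes higher in all 3 comparisons and outside those that the selection and the gates used, the 10 with the largest smallest difference were TRYM, TREM1, RGS18, FCERB, ACY3, F13A1, NCF4, IGSF6, LYVE1 and FCGR1. TREM1, an activating receptor of myeloid cells, was at 186 and 292 CPM in 19 and 29 selected cells. RGS18, a regulator of G protein signalling in blood cells, was at 260 and 206 CPM, NCF4, a subunit of the phagocyte oxidase, at 243 and 223 CPM, and FCGR1, the high-affinity receptor for immunoglobulin G, at 293 and 255 CPM. Each of these had 0 UMIs in the endothelial- and meningeal-gated barcodes of both embryos. Against 3 counts over the meningeal-gated group, the level of TREM1 in the selected cells was at least 55.9-fold higher, that of RGS18 at least 51.4-fold, that of NCF4 at least 52.1-fold and that of FCGR1 at least 60.9-fold. ACY3, an aminoacylase, was at 866 and 805 CPM in 34 and 32 cells, at least 187-fold higher than in meningeal-gated barcodes. IGSF6, an immunoglobulin-family protein, was at 132 and 123 CPM in 18 and 20 cells.

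TRYM and FCERB came from a single cell in each embryo and are described with the mast cell genes. With DESeq2 in place of edgeR, ACY3, LYVE1 and FCGR1 kept the call in all 3 comparisons, and the other 7 of the 10 genes lost it against endothelial- and meningeal-gated barcodes.

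**Figure D3:**
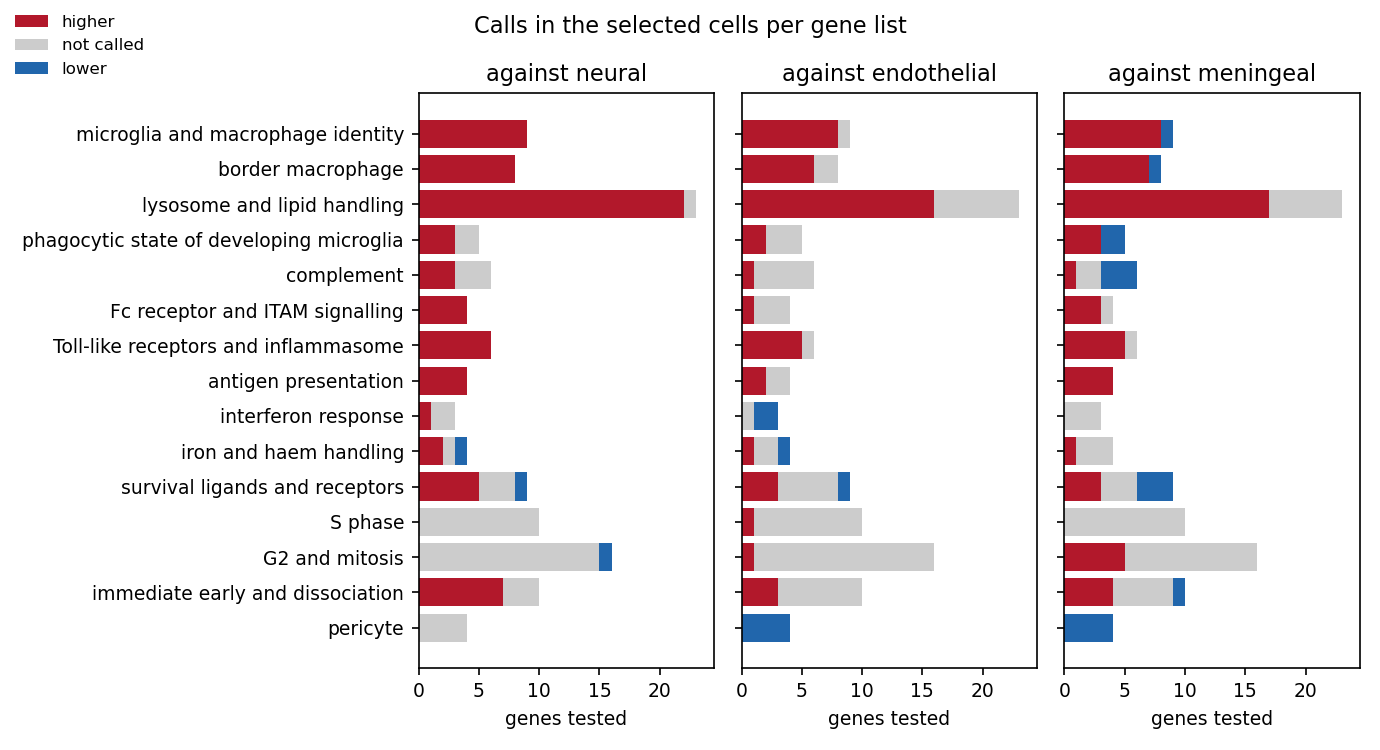
Number of tested genes of each list (x axis) called higher (red), lower (blue) or not called (grey) in the selected cells against neural, endothelial-gated and meningeal-gated barcodes (edgeR, adjusted p under 0.05). The identity, border macrophage and lysosome lists are mostly red in all 3 panels (22 of 23 lysosome genes against neural cells), and the S phase and G2 lists mostly grey. Of all genes tested, 19.7%, 8.74% and 11.7% were called higher in the 3 comparisons.

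Of the 36 genes of microglia and macrophage identity, 23 were named, and 9 passed the filter. All 9 were higher than in neural cells, 8 of 9 (all but OLFML3) were higher than in endothelial-gated barcodes, and 8 of 9 were higher than in meningeal-gated barcodes, where OLFML3 was lower. OLFML3, at 20.6 and 5.73 CPM, was above the progenitor-gated value in embryo 1 (7.75 CPM) and below it in embryo 2 (6.09 CPM). DESeq2 called 8, 6 and 6 of the 9 higher. Among all genes tested, edgeR called 19.7%, 8.74% and 11.7% higher and 18.6%, 8.1% and 13.9% lower against neural, endothelial-gated and meningeal-gated barcodes. These shares are the background for each list that follows. The median log2 ratio of summed counts over the 9, with a class at 0 set to 3 counts, was 3.1, 1.51 and 3.07 against the 3 classes, beside -0.48, -0.11 and -0.15 over all genes tested. CORO1A, an actin-binding protein of blood cells, was at 618 and 533 CPM in the selected cells, at 85.1 and 86.7 CPM in neuron-gated and at 20.5 and 20.5 CPM in progenitor-gated barcodes, a log2 difference of 4.07 ± 0.12 (SE) from neural cells (adjusted p = 3.31e-19). LCP1, the actin bundler of white blood cells, was at 668 and 395 CPM and had 0 UMIs in endothelial- and meningeal-gated barcodes. FYB, an adaptor of immune cells, was at 190 and 140 CPM. The pioneer factor SPI1 was at 12.4 and 2.86 CPM in 3 and 1 cells and RUNX1 at 4.12 and 5.73 CPM in 1 and 2 cells, and both were too sparse to be tested.

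Genes of border macrophages were the other part of the picture. Of 14 listed, 11 were named and 8 passed the filter. All 8 were higher than in neural cells, 6 (COLEC12, DAB2, F13A1, LYVE1, MRC1 and STAB1) higher than in endothelial-gated and 7 higher than in meningeal-gated barcodes, where COLEC12 was lower. DESeq2 called 8, 5 and 5 of them higher. The median log2 ratios were 8.61, 3.08 and 4.97. MRC1, the mannose receptor, was at 581 and 561 CPM in 18 and 15 selected cells, and at 0 and 6.44 CPM in meningeal-gated barcodes (a ratio of 192 in summed counts, against 2 UMIs, 95% counting interval 52.8 to 1595). LYVE1, a hyaluronan receptor, was at 338 and 378 CPM and F13A1, a transglutaminase of the clotting cascade found in tissue macrophages, at 289 and 315 CPM, each with 0 UMIs in endothelial- and meningeal-gated barcodes. STAB1, a scavenger receptor, was at 219 and 370 CPM, above the 145 and 143 CPM of endothelial-gated barcodes (log2 difference 1.32 ± 0.38, adjusted p = 0.0156). DAB2, an endocytic adaptor, was at 812 and 633 CPM, beside 595 and 293 CPM in meningeal-gated barcodes. C163A, the deposited name read as the scavenger receptor CD163 of this list, was counted as not named and was at 82.5 and 74.5 CPM in 8 and 8 cells. CLEC10A and CD209 had 0 UMIs in the selected cells.

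These genes lay in a minority of the selected cells. At least 2 UMIs from at least 2 genes of the border macrophage list were held by 25 of 78 cells in embryo 1 (32.1%, exact 95% interval 21.9% to 43.6%) and 23 of 59 in embryo 2 (39.0%, 26.5% to 52.6%). Without thinning, the threshold was also passed by 65.1% and 41.4% of meningeal-gated barcodes, above the selected cells in both embryos. It was passed by 10.0% and 33.3% of endothelial-gated and by 0.0384% and 0.135% of neuron-gated barcodes. Thinned to 1000 UMIs, the shares were 27.6% and 30.2% of the 58 and 53 selected cells deep enough and 0% of neuron-gated barcodes (upper limits 0.145% and 0.102%). They were 18.3% and 9.80% of meningeal-gated barcodes, which express DAB2 and COLEC12. Without DAB2, 17 and 23 selected cells passed. MRC1 and F13A1 are members of the list that sets the threshold, so that their place past it follows from the split. MRC1 was found in 17 and 15 of the cells past this threshold and in 1 and 0 of the remaining 52 and 35 (a mast cell gene carrier in each embryo was set aside), and F13A1 in 19 and 17 against 0 and 0. The remaining cells held C1QB in 45 and 30, AIF1 in 46 and 31 and TYROBP in 37 and 29 cells. CX3CR1 was found in 2 and 3 cells past the threshold and in 4 and 0 of the rest.

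The levels of some genes that had no part in this split are given for the 2 sets of selected cells as a description, since each embryo gives a single value and the spread between cells was not used. LGMN, a lysosomal endopeptidase, was at 362 and 317 CPM past the threshold and at 26.0 and 34.0 CPM in the rest. PYCARD, the inflammasome adaptor, was at 1713 and 959 CPM against 528 and 255 CPM. In the other direction, APOE was at 1412 CPM past the threshold against 28902 CPM in the rest in embryo 1, and at 11927 against 22850 CPM in embryo 2. CFD, the complement factor D protease, was at 60.3 and 19.8 CPM against 651 and 414 CPM. C3 was at 0 and 112 CPM against 449 and 272 CPM, and ACY3 at 579 and 410 CPM against 1055 and 1241 CPM. In both embryos, LGMN and PYCARD were the higher past the threshold and APOE, CFD, C3 and ACY3 in the rest, an order for which they were chosen. A2MG (alpha-2-macroglobulin) had no such order, at 567 against 2455 CPM in embryo 1 and 2453 against 2018 CPM in embryo 2. All genes named in this paragraph were chosen after their values were seen.

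**Figure D4:**
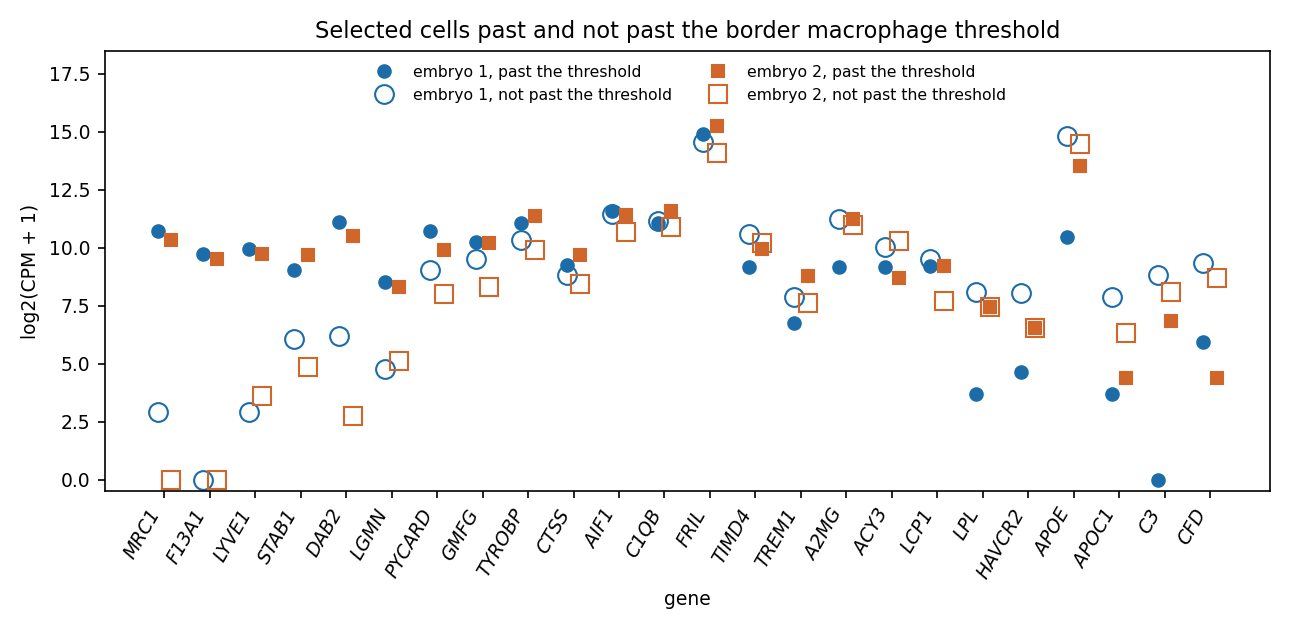
Level as log2(CPM + 1) (y axis) of 24 genes (x axis) in the selected cells past the border macrophage threshold (filled, 25 and 23 cells) and in the remaining selected cells without mast cell genes (open, 52 and 35 cells), for embryo 1 (circles) and embryo 2 (squares). MRC1, F13A1, LYVE1, STAB1 and DAB2, which belong to the list behind the split, are high in the filled symbols, and so is LGMN, which does not; APOE, APOC1, C3 and CFD are lower in the filled than in the open symbols.

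Genes of lysosomes and lipid handling were mostly higher in the selected cells. Of 30 listed, 28 were named and 23 passed the filter, and 22 of the 23 (all but SCARB2) were higher than in neural cells, 16 higher than in endothelial-gated and 17 higher than in meningeal-gated barcodes, and 0 were lower in any of the 3 (0 also at an unadjusted p under 0.05). DESeq2 called 22, 13 and 17 higher and 0 lower. The shares called higher by edgeR over all genes tested were 19.7%, 8.74% and 11.7%. The median log2 ratios were 4.00, 1.80 and 1.80. APOE, the lipid carrier of glia and macrophages, was at 18781 and 16718 CPM (17750 ± 1459, SD, n = 2), at 8.26 and 11.0 CPM in neuron-gated, 17.6 and 21.9 CPM in progenitor-gated and 463 and 496 CPM in meningeal-gated barcodes. The log2 difference of APOE was 10.63 ± 0.12 from neural (adjusted p = 8.37e-27) and 5.37 ± 0.14 from meningeal-gated barcodes (adjusted p = 1.37e-18). It was nevertheless unequal among the selected cells, with medians of 5.5 and 13 UMIs per cell and 23 of 78 (29.5%) and 11 of 59 cells (18.6%) without a UMI. The protease inhibitor CST3 was at 2074 and 1650 CPM, above the neural values (log2 difference 2.79 ± 0.12, adjusted p = 3.62e-16) but beside 1821 and 2250 CPM in meningeal-gated barcodes. CTSD, the aspartic protease of lysosomes, was at 243 and 221 CPM against 30.2 and 12.9 CPM in meningeal-gated barcodes (log2 difference 3.55 ± 0.35, adjusted p = 1.84e-08). Cathepsin L, which the list holds as CTSL and the files as CATL1, was left out of these counts for its name; it was at 4.12 and 5.73 CPM in the selected cells and at 159 and 196 CPM in meningeal-gated barcodes (a ratio of 0.0288 in summed counts, from 3 UMIs in the selected cells, 95% counting interval 0.00585 to 0.0862).

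The state of phagocytic microglia known from development, with SPP1, GPNMB, LPL and IGF1, was represented in part. Of 17 genes, 12 were named and 5 passed the filter. SPP1, LPL and LGALS1 were higher than in neural cells, FABP5 and SPP1 higher than in endothelial-gated barcodes, and FABP5, LPL and SPP1 higher and LGALS1 and LGALS3 lower than in meningeal-gated barcodes, with median log2 ratios of 1.83, 0.90 and 1.31. SPP1, or osteopontin, was at 74.2 and 258 CPM in 6 and 13 cells, and LPL, a lipase, at 177 and 163.3 CPM in 13 and 16 cells. FABP5, a fatty acid carrier, was at 755 and 682 CPM, between the neuron-gated (886 and 1113 CPM) and the meningeal-gated values (219 and 261 CPM). The galectin LGALS1 was at 515 and 719 CPM, above the 182 and 139 CPM of neuron-gated but below the 935 and 1045 CPM of progenitor-gated barcodes, so that its call is against their mean and not against each, and far below the 6812 and 5507 CPM of meningeal-gated barcodes (log2 difference -3.15 ± 0.14, adjusted p = 1.73e-15). GPNMB had 0 UMIs in embryo 1 and 60.2 CPM in 3 cells of embryo 2, and ITGAX, CST7 and CD9 had 0 UMIs in both.

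Among complement genes, 12 of 21 were named and 6 passed the filter. CFD was higher in all 3 comparisons, at 433 and 218 CPM in the selected cells and 2.74 and 3.22 CPM in meningeal-gated barcodes. CD59, a shield against complement lysis, was at 763 and 730 CPM, higher than in neural cells (log2 difference 1.80 ± 0.11, adjusted p = 6.36e-13) and not called against endothelial-gated (942 and 1138 CPM) or meningeal-gated barcodes (867 and 802 CPM). C1R and SERPING1 were among those lower than in meningeal-gated barcodes. C1R had 0 UMIs in embryo 1 and 11.5 CPM in embryo 2, and its call of higher than neural cells rested on embryo 2 alone. The median log2 ratios over the 6 were 2.41, -0.93 and -1.62.

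Of 22 genes of Toll-like receptors and the inflammasome, 18 were named and 6 passed the filter, and all 6 were higher than in neural cells, 5 (all but CD14) higher than in endothelial-gated and 5 (all but IL18) higher than in meningeal-gated barcodes, with median log2 ratios of 8.98, 1.80 and 4.59. DESeq2 called 6, 3 and 3 of them higher, without TLR4 and LY86 against endothelial- and meningeal-gated barcodes. TLR4 and LY86, with 2 and 0 UMIs in neural cells and 0 in endothelial- and meningeal-gated barcodes, passed the filter through the selected cells alone. The count of 6 of 6 was thus set in part by the filter. TLR4, the endotoxin receptor, was at 82.5 and 138 CPM in 11 and 19 cells and had 0 UMIs in endothelial- and meningeal-gated barcodes. LY96, its co-receptor, was at 194 and 315 CPM against 11.0 and 12.9 CPM in meningeal-gated barcodes (log2 difference 4.52 ± 0.41, adjusted p = 3.28e-09). CD14 was at 86.6 and 120 CPM, beside 127 and 98.0 CPM in endothelial-gated barcodes. PYCARD was at 928 and 544 CPM in 46 and 44 cells and at 16.5 and 25.8 CPM in meningeal-gated barcodes. The cytokines IL1B (37.1 and 22.9 CPM in 5 and 4 cells) and TNF (8.25 and 2.86 CPM in 2 and 1 cells) were too sparse to be tested.

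For Fc receptor and ITAM signalling, 11 of 20 genes were named and 4 passed the filter (PTPN6, LYN, NCKAP1L and INPP5D). All 4 were higher than in neural cells, NCKAP1L higher than in endothelial-gated, and INPP5D, LYN and NCKAP1L higher than in meningeal-gated barcodes, with median log2 ratios of 8.80, 0.48 and 2.42. DESeq2 called 4, 0 and 2 higher, and NCKAP1L lost both calls outside neural cells. PTPN6, a phosphatase that dampens such signalling, was at 78.3 and 120 CPM, close to the 74.4 and 82.0 CPM of neuron-gated barcodes (log2 difference 0.65 ± 0.20, adjusted p = 0.0128), and LYN, a kinase, was at 33.0 and 63.0 CPM in 8 and 14 cells. None of the 4 is an Fc receptor. FCGR1, read as the FCGR1A of this list and described above, was left out of these counts for its name and was higher in all 3 comparisons. FCG2A, read as FCGR2A and left out likewise, had 2 UMIs in the selected cells. Of 15 antigen presentation genes, 9 were named and 4 passed, and all 4 were higher than in neural and in meningeal-gated barcodes, and CD74 and CD86 higher than in endothelial-gated barcodes, with median log2 ratios of 9.16, 1.38 and 3.53. DESeq2 called 4, 1 and 3 higher, and CD86 lost both calls outside neural cells. B2M, the light chain of class I molecules, was at 115 and 120 CPM, beside 36.2 and 158 CPM in endothelial-gated barcodes. CD86, a co-stimulator of T cells, was at 94.8 and 48.7 CPM, CD74, the class II invariant chain, at 41.2 and 37.2 CPM, and TAP2, a peptide transporter, at 53.6 and 63.0 CPM. DRA, read as the listed HLA-DRA and left out of these counts for its name, had 22 UMIs in the selected cells. It had 0 in neural cells and in endothelial- and meningeal-gated barcodes.

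Of 20 interferon response genes, 13 were named and 3 passed the filter. ISG15, at 8.25 and 5.73 CPM, and MX1, at 12.4 and 5.73 CPM, were lower than in endothelial-gated barcodes, and 0 of the 3 were called against meningeal-gated barcodes by edgeR (0 at an unadjusted p under 0.05, and 0 by DESeq2). The median log2 ratios were 1.83, -3.24 and -0.81. None of the 8 named of 14 chemokines and chemokine receptors passed the filter, and CCL2, CCR1, CCR2 and CCRL2 had 0 UMIs. Of 9 purinergic receptors and nucleotidases 4 were named, and the only one to pass, NT5E, had 0 UMIs in the selected cells and was lower than in meningeal-gated barcodes.

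Ligands and receptors for survival and contact were divided. Of 17, 15 were named and 9 passed, with 5 higher and 1 lower against neural cells, 3 and 1 against endothelial-gated and 3 and 3 against meningeal-gated barcodes (median log2 ratios 4.03, 0.15 and 0.93). TGFB1, the growth factor on which microglia depend, was at 239 and 321 CPM, far above the 0.636 and 1.36 CPM of neuron-gated barcodes (log2 difference 7.68 ± 0.28, adjusted p = 1.38e-17) and below the 562 and 377 CPM of endothelial-gated ones, a difference that was not called (-0.37 ± 0.27, adjusted p = 0.409). GAS6, a bridge between dying cells and the receptor MERTK, was at 70.1 and 54.4 CPM and CD200R1, an inhibitory receptor, at 37.1 and 60.2 CPM, and both were higher in all 3 comparisons by edgeR. With DESeq2, GAS6 lost the call against endothelial-gated and CD200R1 those against endothelial- and meningeal-gated barcodes. PTN, a growth factor of progenitors, was at 70.1 and 169 CPM against 1409 and 1297 CPM in progenitor-gated barcodes, lower than in neural cells (log2 difference -1.72 ± 0.18, adjusted p = 1.35e-08). Of the CSF1R ligands, CSF1 was at 16.5 and 17.2 CPM in 3 and 4 selected cells and IL34 had 0 UMIs.

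Iron genes were divided as well. Of 10, 7 were named and 4 passed, with 2 higher and 1 lower against neural cells, 1 and 1 against endothelial-gated and 1 and 0 against meningeal-gated barcodes (median log2 ratios 0.95, -0.41 and 0.51). NCOA4, which hands ferritin over to lysosomes, was at 293 and 264 CPM against 41.1 and 54.7 CPM in meningeal-gated barcodes and was higher in all 3 comparisons (log2 difference 2.67 ± 0.25 there, adjusted p = 7.47e-09). SLC40A1, the iron exporter, was at 16.5 and 68.8 CPM, and TFRC, the transferrin receptor, at 8.25 and 11.5 CPM against 163.1 and 535 CPM in endothelial-gated barcodes. The ferritin light chain, named FRIL in these files and chosen after its values were seen, was found in all 78 and 59 cells at 25840 and 25748 CPM, against 3894 and 4108 CPM in neuron-gated and 6562 and 6618 CPM in meningeal-gated barcodes (log2 difference 2.12 ± 0.10, adjusted p = 8.47e-15). The heavy chain, read from the name FRIH, was likewise chosen after its values were seen. At 7664 CPM over both embryos against 8643 CPM in meningeal-gated barcodes, it was not called (log2 difference -0.034 ± 0.103, adjusted p = 0.858). It was called higher than in neural cells (1.12 ± 0.09, adjusted p = 7.00e-11) and endothelial-gated barcodes (0.50 ± 0.11, adjusted p = 0.00239).

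Barcodes past a threshold on genes of G2 and mitosis are called dividing here, although some neuron-gated barcodes passed it as well. At least 2 UMIs from at least 2 genes of G2 and mitosis were held by 28 of 78 (35.9%, exact 95% interval 25.3% to 47.6%) and 19 of 59 cells (32.2%, 20.6% to 45.6%), and by 26.4% and 14.6% of neuron-gated and 75.7% and 71.4% of progenitor-gated barcodes. Since these shares move with depth, each barcode was also thinned to 1000 UMIs, which left out 20 and 6 selected cells. The shares were then 24.1% (13.9% to 37.2%) and 13.2% (5.48% to 25.3%) of the selected cells, 9.51% and 5.68% of neuron-gated, 57.3% and 53.5% of progenitor-gated, 16.7% and 15.7% of meningeal-gated and 34.5% and 24.2% of unassigned barcodes. Of the few endothelial-gated barcodes deep enough, 2 of 6 (33.3%) and 4 of 20 (20.0%) were dividing. The selected cells lay below the progenitors in both embryos, with intervals apart. Above the neurons, their interval was apart in embryo 1 and overlapped in embryo 2 (neurons 4.95% to 6.48%). Among the cells past the border macrophage threshold 10 of 25 and 7 of 23 were dividing, and 18 of 52 and 11 of 35 of the rest.

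**Figure D5:**
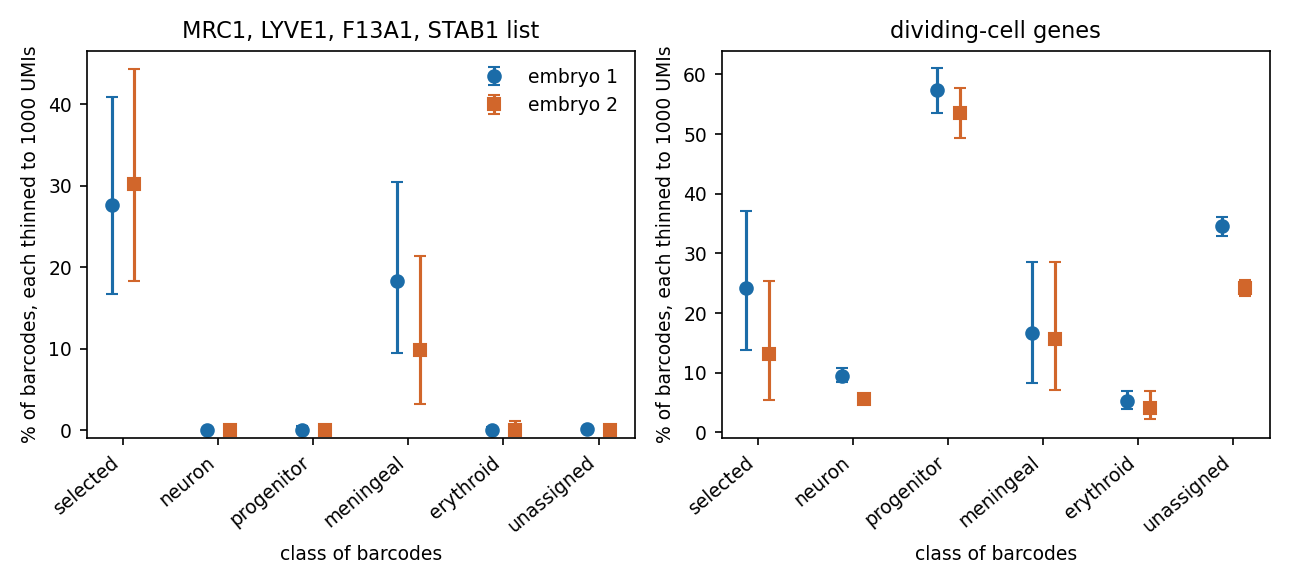
Share of barcodes (y axis, %), each thinned to 1000 UMIs, with at least 2 UMIs from at least 2 genes of the border macrophage list (left) or of the G2 and mitosis list (right), per class (x axis) and embryo, with exact 95% intervals that cover counting error only. The selected cells reach 27.6% and 30.2% on the left, where neuron-gated barcodes are at 0, and 24.1% and 13.2% on the right, below the 57.3% and 53.5% of progenitor-gated barcodes.

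In summed counts, 0 of 10 S phase genes that passed (of 16 listed, 13 named) were called against neural or meningeal-gated barcodes by edgeR at an adjusted p under 0.05. At an unadjusted p under 0.05, MCM3 was higher and MCM7 lower than in neural cells and MCM7 higher than in meningeal-gated barcodes, and DESeq2 called 1, MCM3, higher than in neural cells and 0 against meningeal-gated barcodes. MCM7, at 99.0 and 120 CPM, was higher than in endothelial-gated barcodes by edgeR and not by DESeq2. All 18 genes of G2 and mitosis were named and 16 passed, and 1 of them, NUSAP1, was lower than in neural cells, 1 (CCNB2) higher than in endothelial-gated and 5 (CCNB2, CENPF, MKI67, TOP2A and UBE2C) higher than in meningeal-gated barcodes. Over all genes tested, 18.6% were lower than in neural cells, 8.74% higher than in endothelial-gated and 11.7% higher than in meningeal-gated barcodes. The counts of 1 of 16 lie below those shares. DESeq2 called 0, 0 and 4 of the 16, so that the calls of NUSAP1, of CCNB2 against endothelial-gated and of UBE2C against meningeal-gated barcodes were lost. UBE2C was at 140 and 421 CPM against 178 and 122 CPM in meningeal-gated barcodes, so that its call rested on embryo 2, and its log2 difference was -0.081 without that embryo. NUSAP1, at 132 and 140 CPM, was below the progenitor-gated (799 and 595 CPM) and above the neuron-gated values (108 and 67.7 CPM). The median log2 ratios were -0.60, 0.17 and -0.43 for S phase and -0.57, 0.11 and 0.26 for G2 and mitosis. TOP2A, a topoisomerase of dividing cells, was at 651 and 667 CPM against 3038 and 2285 CPM in progenitor-gated and 422 and 454 CPM in meningeal-gated barcodes (log2 difference from the latter 0.76 ± 0.17, adjusted p = 0.00112). MKI67 was at 449 and 633 CPM. Without the cells that also reached another class, the calls of CCNB2, CENPF, TOP2A and UBE2C against meningeal-gated barcodes were lost and that of MKI67 turned to a log2 difference of -0.10.

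Immediate early genes, which dissociation of tissue is known to induce, were higher than in neural cells in 7 of the 10 that passed (15 of 21 named), higher than in endothelial-gated in 3 and higher than in meningeal-gated barcodes in 4, with EGR1 lower than in the latter by edgeR and not by DESeq2 (median log2 ratios 1.60, 0.38 and 0.35). The call of BTG2 as higher than in meningeal-gated barcodes rested on embryo 1, at 445 CPM against 145 CPM there and 272 CPM against 319 CPM in embryo 2. EGR1, called higher than in neural cells, was below the progenitor-gated value in embryo 2 (596 against 690 CPM). ATF3, a stress-induced factor, was at 524 and 241 CPM against 112 and 126 CPM in meningeal-gated barcodes, and DNAJB1, a heat shock protein, at 1278 and 805 CPM against 535 and 557 CPM, and both were higher in all 3 comparisons. FOS was at 940 and 493 CPM, between the neuron-gated (216 and 236 CPM) and the meningeal-gated values (1017 and 1181 CPM). The part of the enzymatic dissociation in the levels above was not tested.

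Markers of other cells were looked for in the same way. Of the genes of T, B and NK cells, 8 of 11 were named, and CD3D, CD3E, CD3G and CD79B had 0 UMIs. CD2 (78.3 and 54.4 CPM in 11 and 16 cells) and NKG7 (28.9 and 77.3 CPM in 1 and 2 cells) passed the filter and were higher in all 3 comparisons by edgeR, and DESeq2 kept both calls against neural cells and neither against endothelial- or meningeal-gated barcodes. Their median log2 ratios were 10.41, 1.93 and 3.77. Of 13 genes of neutrophils, monocytes and mast cells, 10 were named and 3 passed, with CSF3R (161 and 149 CPM) higher than in neural cells, where it was at 109 and 119 CPM in neurons, and higher than in endothelial-gated barcodes, VCAN lower than in neural and in meningeal-gated barcodes and KIT lower than in meningeal-gated barcodes. Their median log2 ratios were -1.09, -0.07 and -2.45. S100A9, LTF and CCR2 had 0 UMIs.

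A single selected cell in each embryo held genes of mast cells. TRYM, a tryptase, stood at 416 and 364 CPM over the selected cells, and FCERB, the beta chain of the immunoglobulin E receptor, at 186 and 140 CPM, and all of these UMIs lay in 1 cell of 6107 UMIs in embryo 1 and 1 of 21379 UMIs in embryo 2. Within those cells TRYM made up 16538 and 5940 CPM. Neither held a UMI of APOE or C1QB or passed the border macrophage threshold, and both had been selected through TYROBP and CTSS, with AIF1 in embryo 2. Without them 347 genes in place of 422 were higher than in endothelial-gated barcodes, 911 in place of 952 higher than in neural cells and 552 in place of 563 higher than in meningeal-gated barcodes.

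Haemoglobin made up 9.14% and 2.39% of the UMIs of the selected cells, but a median of 0.443% and 0.0874% per cell, and HBB was its most abundant gene (90647 and 23565 CPM). AHSP, a haemoglobin chaperone, was at 940 and 100 CPM in 4 and 3 cells and ALAS2, of haem synthesis, at 284 and 65.9 CPM in 2 and 2 cells, and both were higher in all 3 comparisons. The 2 genes no longer passed the filter when the cells that reached another class, 2 and 1 of them by haemoglobin, were left out, so these calls rested on those cells. Endothelial-gate genes summed to 12.4 and 17.2 CPM in the selected cells, with CDH5, TIE1, EMCN and ESAM at 0, and meningeal-gate genes to 16.5 and 2.86 CPM, with COL3A1 and LUM at 0. Neuron-gate genes summed to 297 and 659 CPM, mostly STMN2 (276 and 570 CPM), and progenitor-gate genes to 78.3 and 85.9 CPM.

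Genes of pericytes were lower in the selected cells, with ABCC9, KCNJ8, PDGFRB and RGS5, all 4 that passed of 6, lower than in endothelial- and in meningeal-gated barcodes (median log2 ratios -3.67 and -2.78) and none called against neural cells (3.87, where both sides were near 0). KCNJ8, PDGFRB and RGS5 had 0 UMIs. PDGFRA of oligodendrocyte precursors had 0 UMIs and was lower than in meningeal-gated barcodes, and TTR, made by the choroid plexus, was at 326 and 45.8 CPM in 9 and 11 cells and not called by edgeR, while DESeq2 called it higher than in endothelial-gated barcodes. PF4, a platelet chemokine that macrophages also make, was at 20.6 and 45.8 CPM and higher than in neural and meningeal-gated barcodes, the latter by edgeR and not by DESeq2.

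Among the genes lower in all 3 comparisons, the 5 named by the rule were SPARCL1, TSPAN6, SNCG, PTPRG and ABCB6. SPARCL1, a secreted matrix protein of glia and vessels, had 0 UMIs in the selected cells, against 1401 and 882 CPM in meningeal-gated and 75.4 and 61.6 CPM in progenitor-gated barcodes. TSPAN6, a tetraspanin, was at 4.12 and 5.73 CPM against 161 and 126 CPM in progenitor-gated and 49.4 and 48.3 CPM in meningeal-gated barcodes (a ratio of 0.104 in summed counts, from 3 UMIs in the selected cells, 95% counting interval 0.0204 to 0.331). SNCG (0 and 2.86 CPM), PTPRG (0 and 5.73 CPM) and ABCB6 (4.12 and 2.86 CPM) were likewise near 0.

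Between the embryos, each of which gives a single value, some selected-cell levels were close and others not. C1QB, TYROBP, CTSS, MRC1 and FRIL differed by under 10% of the larger value. LCP1 was higher in embryo 1 (668 CPM, exact 95% Poisson interval 569 to 779) than in embryo 2 (395, 332 to 467), as were AIF1 (2845, 2637 to 3065, against 2017, 1870 to 2171) and CFD. AHSP (940 and 100 CPM) and TTR (326 and 45.8 CPM) were further apart. SPP1, SLC40A1 (16.5 and 68.8 CPM), UBE2C (140 and 421 CPM) and S100A4 (136 and 627 CPM in 10 and 9 cells, chosen after its values were seen) were higher in embryo 2. TIMD4, a receptor for dying cells on tissue macrophages that was chosen after its values were seen, was at 1179 and 1014 CPM in 41 and 35 cells, and at 0 and 3.22 CPM in meningeal-gated barcodes. No test between embryos was possible with 1 library each.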

How the data were processed

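Whole brains of 2 embryos were measured by 10x Chromium 3′ single-cell RNA-seq, 1 library each. The authors checked the quality of the reads with fastp and ran Cell Ranger 3.1.0 against the TS_2.0 assembly, and deposited raw UMI counts per gene model and barcode, with Seurat 3 named for later steps. Models of the same name were summed (23975 models, 18543 names) in Python 3.11.15. Names such as FRIL, TRYM or FCERB look like protein-entry names and were read as such; lists were matched by symbol alone.

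Selected cells were taken first. Other classes needed 3 UMIs from at least 2 genes of a list (neuron, progenitor, endothelial, meningeal) or 20% haemoglobin UMIs (erythroid, left out of the fit). CPM are per 1000000 UMIs of a class. Sums per embryo and class (10 libraries) went into edgeR's quasi-likelihood test (version 4.0.16, R 4.3.3, TMM factors, filterByExpr, Benjamini-Hochberg over 4826 genes, threshold 0.05), with embryo as a block because the classes of an embryo come from the same animal. Neural cells are the mean of the neuron and progenitor coefficients. The 29 tested genes that the selection or the gates used are in the counts of calls, as stated beside them, and no test of one of them is given as a result. Fitted differences with a class at 0 are not printed, except among the reversed differences in the section on the processing. Ratios of summed counts use 3 counts over the group. Intervals and floors cover counting error only.

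The selecting genes, lists and tests were chosen with earlier results of these data known, and the mast cell genes, the border macrophage split and their alternatives after seeing the data. Genes named were, per list, up to 4 called with the highest level and up to 3 not called, plus 10 higher and 5 lower in all 3 comparisons; the selecting genes, label markers and gate genes are described throughout, and every other gene named was chosen after its values were seen. Alternatives covered scaling (RLE), filtering, DESeq2 1.42.0, no block, stricter selection, 500 genes, members of other classes left out, an added erythroid class and each embryo left out. A few listed genes are not reported here.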

Additional observations from a re-analysis of the deposited data

How the results depend on the processing

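The share of selected cells was 0.563% with at least 6 UMIs from at least 3 selecting genes (0.781% as reported), and 59 to 78 cells remained when 1 embryo was left out. The share of dividing cells was 18.7% after thinning to 1000 UMIs and 24.7% with at least 3 UMIs (34.1% as reported), and that of cells past the border macrophage threshold was 28.9% after thinning and 30.4% without DAB2 (35.5%). With DESeq2, 269 genes were higher than in endothelial-gated barcodes. Without the cells past the border macrophage threshold, 560 genes were higher and 432 lower than in neural cells and 220 higher than in endothelial-gated barcodes, from fewer cells, and the log2 differences of COLEC12 from neural (-5.25) and endothelial-gated (-8.92), of DAB2 from endothelial-gated (-0.48) and meningeal-gated (-3.49) and of STAB1 from endothelial-gated barcodes (-1.69) reversed, since those cells had been chosen for UMIs of this list; of the 5, DAB2 against meningeal-gated barcodes passed the threshold. That of MKI67 from meningeal-gated barcodes was -0.20 with the stricter selection and -0.10 without cells of other classes. With 1 embryo left out, the log2 difference of C1R from neural cells ran from -1.54 to 3.54. Those from meningeal-gated barcodes ran from -0.081 to 1.81 for UBE2C and from -0.19 to 1.88 for BTG2. Such fits have no test. The -1.54 of C1R was fitted with 0 UMIs in the selected cells of embryo 1, so its size is not a measured difference. The sizes of the 2 COLEC12 values above point to 0 UMIs in the remaining cells and are not measured differences either. The cause of the other changes was not tested. Without the replicate block, 895 and 796 genes were higher and lower than in neural, 358 and 362 than in endothelial-gated and 492 and 619 than in meningeal-gated barcodes. DESeq2 lost 22 calls of listed or named genes against endothelial-gated, 21 against meningeal-gated and 4 against neural cells. The depth of 10 and 21 endothelial-gated barcodes limits that comparison.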
